A study of Homo sapiens with 6 samples.

Results

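The hydroxycarboxylic acid receptors HCAR1, HCAR2 and HCAR3 were followed in RNA-Seq counts of A549 cells, an established line from a human lung adenocarcinoma. The 3 genes were taken by symbol from a table of 23180 gene symbols, and each had 1 transcript in it. They were chosen by their counts after knock-down in these same samples, in which HCAR3 and HCAR2 had stood out for their fold changes. Their levels in the 2 groups are therefore given as a description, with no test. The study compared 3 samples transfected with siControl, a control siRNA, and 3 samples transfected with siKMT9α, an siRNA against N6AMT1, the gene of the α subunit of the histone methyltransferase KMT9. All 6 samples were A549 cells labelled wild type at passage 11, transfected with an siRNA and harvested 3 days later, so that the knock-down was transient and the control cells were transfected as well.

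Hydroxycarboxylic acid receptors are G protein-coupled receptors that bind small intermediates of energy metabolism and signal through Gi proteins, which lower cyclic AMP. HCAR1, also known as GPR81, responds to lactate. HCAR2, also known as GPR109A, responds to 3-hydroxybutyrate and butyrate and is the receptor for the drug nicotinic acid. HCAR3, also known as GPR109B, is found in humans and other apes and responds to 3-hydroxyoctanoate, an intermediate of fatty acid β-oxidation. In adipocytes the receptors restrain lipolysis, and HCAR2 and HCAR3 are known from neutrophils, macrophages and keratinocytes.

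The 3 genes lie side by side on the minus strand of chromosome 12. In hg19, HCAR2 (NM_177551) was listed at chr12:123185840-123187904, HCAR3 (NM_006018) at chr12:123199303-123201439 and HCAR1 (NM_032554) at chr12:123212153-123215129. The gaps are 11399 bases between HCAR2 and HCAR3 and 10714 bases between HCAR3 and HCAR1. Each gene has 1 annotated exon in GRCh37, with an uninterrupted coding sequence of 1092 bases in HCAR2, 1164 in HCAR3 and 1041 in HCAR1, stop codons included. No other gene of the table overlapped the members. In the annotation, a long noncoding RNA gene without a symbol runs over HCAR2 and HCAR3 on the plus strand, and it is not stated whether the counting used the strand, so reads from it cannot be told apart from reads of the receptors. The listed span of HCAR3 starts upstream of the annotated gene start (base 123201358), and that of HCAR1 is shorter than the annotated gene, which runs from 123210623 to 123215391.

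HCAR2 and HCAR3 are nearly identical in sequence, which bears on how far their counts can be told apart. Over the deposited spans, 2005 of 2056 aligned bases were the same (97.5%), and within the coding sequence of HCAR2 there were 27 substitutions against HCAR3. Of these, 24 lay in the first 600 coding bases and 3 after them. The longest stretch without a difference had 192 bases. The coding starts are shown first, because they place HCAR1 apart from the pair. Capitals mark the start codon, and all sequences are read 5′ to 3′ on the minus strand of GRCh37, at chr12:123214857-123214886 for HCAR1, chr12:123187801-123187830 for HCAR2 and chr12:123201255-123201284 for HCAR3.
HCAR1: ATGtacaacgggtcgtgctgccgcatcgag
HCAR2: ATGaatcggcaccatctgcaggatcacttt
HCAR3: ATGaatcggcaccatctgcaggatcacttt
The coding starts of HCAR2 and HCAR3 could not be distinguished. Coding bases 243 to 272, a 30-base stretch with 5 substitutions, show what a read needs to cover to be assigned to either gene. Capitals mark the bases that differ, at chr12:123187559-123187588 for HCAR2 and chr12:123201013-123201042 for HCAR3.
HCAR2: CttcCtgatggacAactatgtgAggcgttG
HCAR3: GttcGtgatggacTactatgtgCggcgttC
Written as the HCAR2 base, the coding position (1 being the A of the start codon) and the HCAR3 base, these substitutions are C243G, C247G, A256T, A265C and G272C. The end of the HCAR2 coding sequence is shown because it sets the receptors' lengths. Capitals mark 5 bases, coding bases 1086 to 1090, that HCAR2 has and HCAR3 lacks, at chr12:123186729-123186758 for HCAR2 and chr12:123200188-123200212 for HCAR3.
HCAR2: tgggcccaacctcTCCTTaaataaccatgc
HCAR3: tgggcccaacctcaaataaccattc
The last of the 5 bases is the first base of the HCAR2 stop codon, and the reading frame of HCAR3 runs on for 24 more codons, to 387 codons before the stop against 363 in HCAR2 and 346 in HCAR1. In the coding sequence, HCAR1 matched HCAR2 at 69.2% and HCAR3 at 71.0% of the aligned bases.

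The part of each gene that a read could share with the other was counted for several read lengths, since the read length and the counting options are not given in the sources used here. Of all 50-base stretches of the HCAR2 span, 35.2% also occurred in the HCAR3 span, and of those of HCAR3, 34.0% occurred in HCAR2. At 100 bases the shares were 14.9% and 14.4%, and at 150 bases 4.85% and 4.68%. HCAR1 shared 0 stretches of 50 bases or more with either gene. Reads of 100 bases would thus be assignable to HCAR2 or HCAR3 over most of either span, while those in the shared stretches could be split between the genes, given to either of them or dropped.

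**Figure D1:**
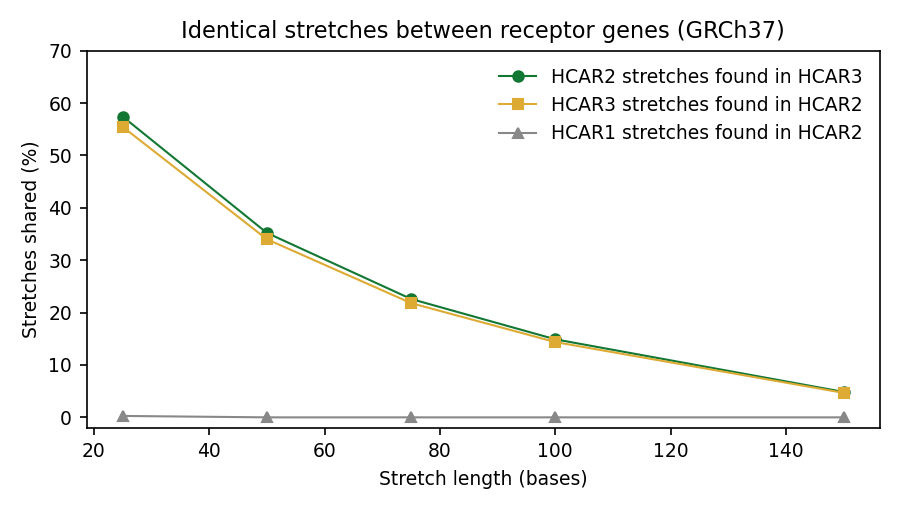
Share of all stretches of a gene's deposited span (vertical axis, %) that also occur in another receptor gene, by stretch length in bases (horizontal axis), read from GRCh37. For HCAR2 and HCAR3 the share falls from 57.4% and 55.5% at 25 bases to 4.85% and 4.68% at 150 bases, and for HCAR1 against HCAR2 it stays at or under 0.271%.

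The knock-down and the depth were checked first. Levels are in CPM, the counts of a gene per mega-count of its sample after TMM scaling in edgeR. N6AMT1 stood at 10.8 ± 0.62 CPM with siControl and 3.15 ± 0.25 CPM with siKMT9α (SD over 3 samples each). It fell by 1.77 on the log2 scale with a standard error of 0.12, and edgeR's quasi-likelihood test gave an adjusted p of 1.43e-10. With 1 transcript per gene, the samples held 13740097 to 19832395.5 counts, so 3 counts are 0.156 to 0.227 CPM. At an adjusted p under 0.05, 75.6% of the 13877 genes tested differed between the groups, 37.1% higher and 38.5% lower with siKMT9α, and 24.2% passed the stricter limits of the study's methods, a P under 1e-08 together with a log2 fold change beyond 0.26 in either direction. These numbered 1878 higher and 1479 lower, and 1516 and 1862 when only the library size was used for scaling. Under that scaling the calls at an adjusted p under 0.05 went from 5150 higher and 5342 lower to 4359 and 6212, so the shares of all genes in each direction move with it. A549 keratins were abundant. The lung epithelial list summed to 4402 to 4886 CPM with siControl and 2943 to 3131 CPM with siKMT9α, mostly from keratins. Its members went both ways. KRT8, KRT18, KRT19 and EPCAM were lower with siKMT9α, CDH1 was higher, and KRT7 was at 1260 CPM with siControl and 1269 CPM with siKMT9α. EPCAM went from 3.86 to 0.59 CPM and CDH1 from 3.39 to 8.62 CPM. NKX2-1 had at most 10 counts in each sample, and the surfactant genes SFTPA1, SFTPB and SFTPC at most 3.

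HCAR2 was nearly silent with siControl. It had 3.5, 2 and 4 counts in siControl replicates 1, 2 and 3, which are 0.186, 0.123 and 0.208 CPM. With siKMT9α it had 78, 94 and 101 counts in replicates 1, 2 and 3, which are 5.90, 6.87 and 5.28 CPM. All 3 siKMT9α samples lay above all siControl samples, and groups that do not overlap were also found for 77.0% of all genes tested. The mean was 0.17 ± 0.04 CPM with siControl and 6.02 ± 0.80 CPM with siKMT9α (SD, n = 3 each), a fitted log2 fold change of 4.96. Summed over the replicates and divided by depth, the counts were 33.9 times as high, with a 95% interval of 17.2 to 67.9 from counting error alone (exact binomial). The width of this interval comes from the 9.5 counts of the siControl samples together.

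HCAR3 showed the same separation. It had 2.5, 0 and 2 counts in siControl replicates 1, 2 and 3, which are 0.133, 0 and 0.104 CPM. A count of 0 in siControl replicate 2 allows a level of up to 0.185 CPM. With siKMT9α it had 54.5, 79 and 79.5 counts in replicates 1, 2 and 3, which are 4.12, 5.77 and 4.16 CPM. The groups did not overlap, as for 77.0% of all genes tested, and the siKMT9α mean was 4.68 ± 0.94 CPM against 0.08 ± 0.07 CPM with siControl (SD, n = 3 each). The fitted log2 fold change was 5.84, but with 4.5 counts in all siControl samples together it turns on how values in steps of 0.5 are rounded. With the 0.5 always rounded up it was 5.55, and with all counts doubled in place of rounding 5.77. The ratio of the summed counts divided by depth was 55.8. Its 95% interval for counting error was 24.2 to 232.5, computed with the 4.5 siControl counts rounded down to a whole count. This interval covers the ratio of HCAR2, so the depth does not separate the ratios of HCAR3 and HCAR2.

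HCAR1, the lactate receptor, was at the limit of detection in both groups. It had 4, 0 and 0 counts in siControl replicates 1, 2 and 3 and 0, 1 and 0 counts in siKMT9α replicates 1, 2 and 3. The siControl total of 4 counts came from replicate 1 alone. A count of 0 allows a level up to that of 3 counts. A difference in HCAR1 was not detectable at this depth, and the ratio of the summed counts had a 95% interval of 0.00598 to 2.98. An HCAR1 level like that of HCAR2 or HCAR3 after knock-down, at 4.12 CPM or more in each siKMT9α sample, would have been seen. HCAR1 failed edgeR's filter on low counts, whereas HCAR2 and HCAR3 passed it through their siKMT9α samples.

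**Figure D2:**
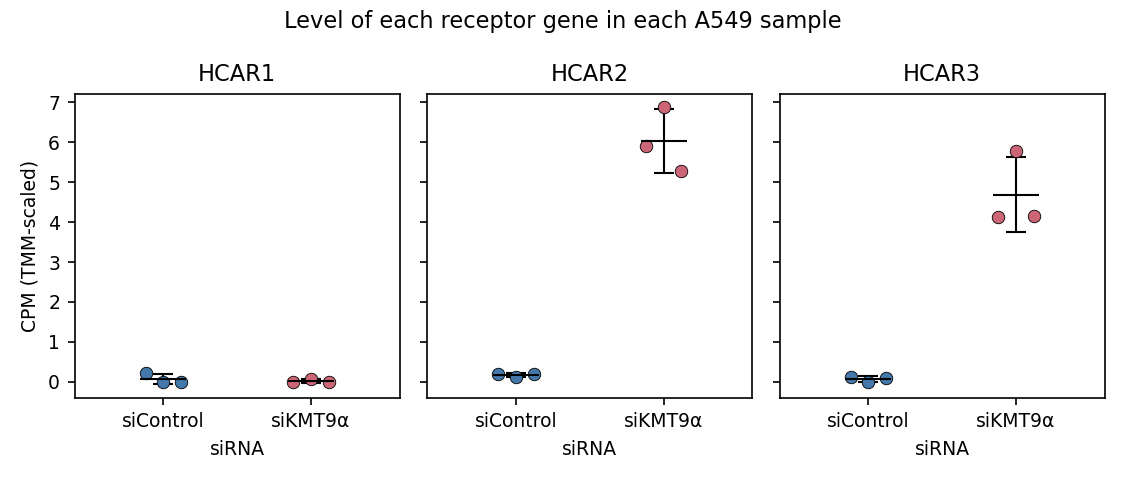
TMM-scaled CPM (vertical axis, linear) of each receptor gene in the 3 siControl and 3 siKMT9α samples. Points are samples in replicate order, horizontal bars are means and error bars are SD; HCAR2 and HCAR3 lie at 4.12 to 6.87 CPM in every siKMT9α sample and at most 0.208 CPM in every siControl sample, and HCAR1 stays at or under 0.212 CPM throughout.

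Among the siKMT9α samples, replicate 2 had the highest CPM of both HCAR2 and HCAR3. The lowest was replicate 3 for HCAR2 and replicate 1 for HCAR3. The highest siKMT9α sample was 1.30 times the lowest for HCAR2 and 1.40 times for HCAR3. The coefficient of variation was 13.3% for HCAR2 and 20.2% for HCAR3, against 10.5% and 11.9% from counting alone at their mean counts. The spread of HCAR2 was thus near its counting error. The part of reads that the genes share in these values was not tested.

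The division of the pair's counts between the genes was much the same in each siKMT9α sample. HCAR3 held 41.1% of the HCAR2 and HCAR3 counts in siKMT9α replicate 1, 45.7% in replicate 2 and 44.0% in replicate 3. The exact binomial 95% intervals of these shares, from 32.9% to 50.2%, 38.1% to 53.4% and 36.8% to 51.8%, overlapped one another. With siControl the shares were 41.7%, 0% and 33.3% of only 6, 2 and 6 counts, and their intervals reached from 0% to 84.2%, so a change of the share on knock-down could not be assessed. Added into 1 feature, which no splitting of shared reads between the genes can alter, the pair went from 2 to 6 counts per siControl sample to 132.5, 173 and 180.5 counts in siKMT9α replicates 1 to 3. The sum stood at 0.25 ± 0.11 CPM with siControl and 10.7 ± 1.71 CPM with siKMT9α (SD, n = 3 each), a fitted log2 fold change of 5.32. As both genes had higher counts with siKMT9α, their sum had to be higher as well. Of the 6 values of each gene, 1 of HCAR2 and 3 of HCAR3 were not whole numbers, against 36.4% of all values in the table.

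**Figure D3:**
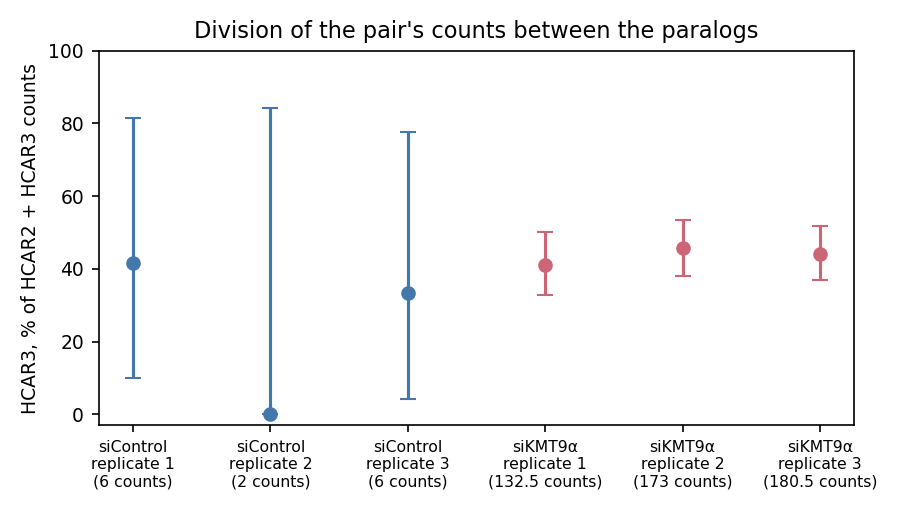
Share of the HCAR2 and HCAR3 counts that was assigned to HCAR3 (vertical axis, %) in each sample, with the exact binomial 95% interval as error bar and the pair's count under each sample. The siKMT9α samples lie at 41.1% to 45.7%, and the siControl samples rest on 2 to 6 counts and have intervals that span most of the axis.

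Divided by length, HCAR2 was at 2.91 ± 0.39 and HCAR3 at 2.19 ± 0.44 CPM per kilobase with siKMT9α (SD, n = 3 each), so the order of levels was HCAR2, HCAR3 and HCAR1, the last at 0.00819 CPM per kilobase. The per-length ranges of HCAR2 (2.56 to 3.33) and HCAR3 (1.93 to 2.70) overlapped between samples. Within each siKMT9α sample HCAR2 was the higher, at 2.86 against 1.93 in replicate 1, 3.33 against 2.70 in replicate 2 and 2.56 against 1.95 CPM per kilobase in replicate 3, and HCAR1 lay below both. These levels were low among expressed genes, above 30.4% of the 13877 genes tested for HCAR2 and 25.8% for HCAR3. With siControl, per-length levels were 0.0835 for HCAR2, 0.0369 for HCAR3 and 0.0238 for HCAR1, above 0.418%, 0.0793% and 0.0432% of the genes tested. In the table, 7733 gene symbols were at or under the highest siControl level of the pair, 0.208 CPM, in each siControl sample, and 3363 of them had at least 1 count in any sample. HCAR2 and HCAR3 were the only 2 of these symbols at or above 4.12 CPM in each siKMT9α sample, limits that are the pair's own values.

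The gene patterns most like those of the pair were sought by Pearson correlation over the 6 samples, in log2(CPM + 0.5), among genes with a mean of at least 1 CPM. HCAR2 and HCAR3 correlated at 0.998. For HCAR2, RPP21, TP53BP2, FAM13B, NFKBIA and ATP5A1 came closest, with correlations of 0.99950 to 0.99989. NFKBIA, the inhibitor of NF-kB that NF-kB itself induces, was at 41.2 CPM with siControl and 95.4 CPM with siKMT9α. For HCAR3, HNRNPA1, TRIM24, SFMBT1, COA1 and HSPA14 came closest, at 0.99937 to 0.99985. These figures describe the split between 2 groups that all these genes share, since 1199 of 13084 genes correlated with HCAR2 above 0.99 and 927 with HCAR3.

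Genes around the cluster did not share one direction. Within 500 kb of the cluster, 20 other genes were listed and 15 were tested, of which 6 rose, 6 fell and 3 did not pass the test at an adjusted p under 0.05. That is 80% called, against 75.6% of all genes. The nearest gene on the HCAR1 side, DENR, a translation re-initiation factor that lies 22.2 kb away, was at 172.9 ± 5.22 CPM with siControl and 162.7 ± 6.82 CPM with siKMT9α (SD, n = 3 each; log2 fold change -0.09, adjusted p = 0.103). The nearest on the HCAR2 side, KNTC1, a kinetochore protein 74.9 kb away, rose from 13.6 ± 0.49 to 28.4 ± 3.69 CPM (log2 fold change 1.07, adjusted p = 2.55e-09). Further out, MPHOSPH9 rose by a log2 fold change of 1.31 and VPS37B, a subunit of the ESCRT-I sorting complex, by 0.84. VPS33A, a vacuolar sorting protein, fell by 1.21 on the log2 scale, OGFOD2 by 0.56 and DIABLO, the mitochondrial inhibitor of IAP proteins, by 0.54. The median log2 fold change of the 15 genes was -0.14, against -0.01 over all genes tested.

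**Figure D4:**
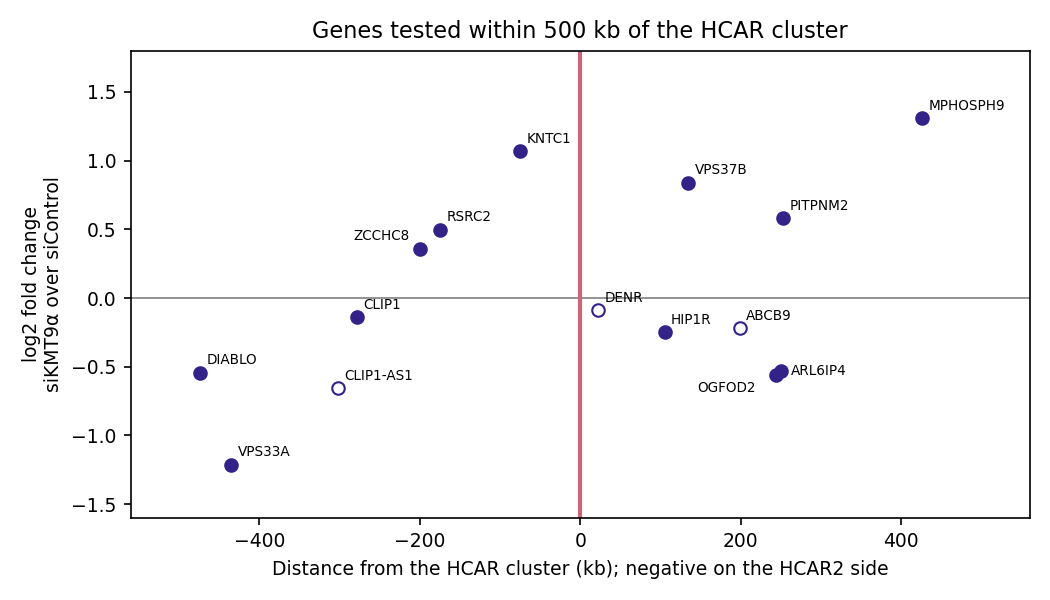
log2 fold change of siKMT9α over siControl (vertical axis) for the 15 genes tested within 500 kb of the receptor cluster, by distance from it in kb (horizontal axis, negative on the HCAR2 side; the red line is the cluster). Filled points had an adjusted p under 0.05; 6 of them lie above 0 and 6 below.

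Further genes were read from lists chosen by function, with earlier results of these data known. They make, move or use the receptors' ligands, carry their signal, or are related to the receptors. The shares of each list are therefore given as a description, with no test of the list. Of 14 genes for lactate production and transport, the supply of the HCAR1 ligand, 10 were tested, 5 rose and 3 fell (backgrounds 37.1% and 38.5%), with a median log2 fold change of 0.18. LDHA, the lactate dehydrogenase subunit that favours lactate formation, rose from 812.7 ± 17.1 to 1576 ± 64.7 CPM (log2 fold change 0.96, adjusted p = 1.39e-12). LDHB, the other main subunit, was at 1251 ± 32.4 and 1277 ± 15.7 CPM (log2 fold change 0.03, adjusted p = 0.587), and with the library size alone its value was -0.08. The lactate carriers went both ways. SLC16A1 (MCT1) fell from 197.5 ± 21.5 to 65.2 ± 6.59 CPM (log2 fold change -1.59, adjusted p = 3.42e-13). SLC16A3 (MCT4), which exports lactate from glycolytic cells, rose from 20.7 ± 0.13 to 33.6 ± 1.38 CPM (log2 fold change 0.70, adjusted p = 1.19e-08), and SLC16A7 (MCT2) by a log2 fold change of 1.35. BSG, the chaperone of MCT1 and MCT4, rose by 1.81. LDHD, the D-lactate dehydrogenase, fell by 2.87 on the log2 scale and MPC1, a subunit of the mitochondrial pyruvate carrier, by 0.97. With the library size alone, 4 genes were higher and 4 lower.

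For the ligand of HCAR2, 3-hydroxybutyrate, the list held 9 genes of ketone body synthesis and use, of which 7 were tested, 3 rose and 3 fell (85.7% called, against 75.6% of all genes), with a median log2 fold change of -0.07. BDH1, which forms 3-hydroxybutyrate, rose from 1.90 ± 0.15 to 2.91 ± 0.26 CPM (log2 fold change 0.61, adjusted p = 0.00469), ACAT1 by 0.27 and OXCT1, which activates ketone bodies for use, by 0.20. BDH2 fell by 0.50 on the log2 scale, SLC16A6 by 0.23 and AACS by 0.13. Without siKMT9α replicate 1, or without siKMT9α replicate 2, only 3 genes of this list passed, and OXCT1, SLC16A6 and AACS did not. The calls of OXCT1 and AACS were also lost with DESeq2, at adjusted p-values of 0.0913 and 0.115, and with the replicate block in edgeR, at 0.0628 and 0.0641. With the library size alone, 2 genes were higher and 4 lower.

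For the ligand of HCAR3, a 3-hydroxylated fatty acid, all 20 genes of fatty acid β-oxidation were tested, and 14 fell, 2 rose and 4 did not pass the test. The share that fell, 70%, stands against 38.5% of all genes, with the library size alone 16 genes were lower and 2 higher, and the median log2 fold change was -0.44. ACADM, the medium-chain acyl-CoA dehydrogenase, fell from 57.4 ± 3.59 to 25.8 ± 0.67 CPM (log2 fold change -1.15, adjusted p = 4.57e-12). EHHADH, a peroxisomal enzyme, fell by 0.90 on the log2 scale. HADHA and HADHB, the subunits of the mitochondrial trifunctional protein, whose α subunit uses long-chain 3-hydroxyacyl-CoA, fell by 0.37 and 0.56. HADH, the dehydrogenase for shorter 3-hydroxyacyl-CoA, rose from 16.8 ± 0.92 to 21.6 ± 0.90 CPM (log2 fold change 0.36, adjusted p = 0.000309). CPT1A, which admits fatty acids to mitochondria, rose by 0.45.

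Nicotinic acid, the drug ligand of HCAR2, is also a precursor of NAD. Of 16 genes of nicotinic acid and NAD synthesis, 12 were tested, 7 rose and 4 fell (58.3% and 33.3%, against 37.1% and 38.5% of all genes), with a median log2 fold change of 0.20. With the library size alone, 4 were higher and 4 lower. NAPRT, which takes up nicotinic acid into NAD synthesis, rose from 3.76 ± 0.42 to 6.99 ± 1.04 CPM (log2 fold change 0.92, adjusted p = 1.04e-05). NAMPT, which salvages nicotinamide, fell from 285.2 ± 10.5 to 181.7 ± 6.44 CPM (log2 fold change -0.65, adjusted p = 3.78e-10). KMO and KYNU, enzymes of tryptophan breakdown, rose by 1.87 and 0.74. NMNAT2 fell by 1.68 on the log2 scale and NMRK1 by 0.67.

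Genes for the proteins through which Gi-coupled receptors signal were read next. Of 23 genes for Gi and Go subunits, arrestins and receptor kinases, 21 were tested, 10 rose and 7 fell, with a median log2 fold change of 0.14. The share called, 81.0%, was near the 75.6% of all genes. GNAO1 and GNG7 were not tested for low counts, with 39 and 7 counts in the siControl samples together and 3 each in the siKMT9α samples. GNAI1, a Gi α subunit, rose from 224.1 ± 10.7 to 298.1 ± 20.7 CPM (log2 fold change 0.41, adjusted p = 1.36e-06), and GNAI3 by 0.47. GNAI2 fell by 0.20 on the log2 scale (adjusted p = 0.012), a difference whose call was lost without siControl replicate 2, siControl replicate 3 or siKMT9α replicate 2, at adjusted p-values of 0.0539 to 0.0781. ARRB1 and ARRB2, the β-arrestins that bind activated receptors, fell by 1.04 and 0.21. The call of ARRB2 was lost without siControl replicate 3 (adjusted p = 0.0588). The receptor kinase GRK5 rose from 4.46 ± 0.31 to 18.8 ± 1.20 CPM (log2 fold change 2.07, adjusted p = 8.88e-13), GNB5 by 1.44 and GRK6 by 0.88. GNG2 fell by 1.07 and GNAZ by 0.61, and with DESeq2 GNAZ was not called (adjusted p = 0.0719).

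Downstream of Gi, a list of 27 genes held adenylyl cyclases, protein kinase A, cyclic AMP breakdown and the lipase gene LIPE. Of these, 22 were tested, 14 rose and 5 fell, LIPE among them, with a median log2 fold change of 0.34. The share that rose was 63.6%, against 37.1% of all genes, and with the library size alone 11 genes were higher and 6 lower. The highest values were those of phosphodiesterases, which break down cyclic nucleotides. PDE3A rose from 6.24 ± 1.34 to 22.2 ± 2.36 CPM (log2 fold change 1.83, adjusted p = 5.98e-11), PDE7B by 1.67 and PDE7A by 1.31. LIPE encodes hormone-sensitive lipase, an enzyme whose activity is restrained in adipocytes when receptors of this family are active. Its RNA, which is not a measure of that activity, fell from 3.15 ± 0.39 to 1.11 ± 0.30 CPM (log2 fold change -1.55, adjusted p = 3.80e-06). A link of this difference to the receptors was not tested. PRKAR2B and PRKAR1B, regulatory subunits of protein kinase A, fell by 1.38 and 0.72 on the log2 scale.

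Other receptors for metabolites were mostly at or near 0 in both groups. Of 17 listed, 3 were tested, FFAR4, GPR35 and GPR132, and 2 rose (66.7% called, against 75.6% of all genes). FFAR4, a receptor for long-chain fatty acids, rose from 1.04 ± 0.46 to 1.89 ± 0.27 CPM (log2 fold change 0.85, adjusted p = 0.008), and without siControl replicate 3 its adjusted p was 0.0598. GPR132, which lies outside the rule for named genes and was chosen after its values were seen, was at 0.39 ± 0.13 and 1.07 ± 0.35 CPM (log2 fold change 1.35, adjusted p = 0.00193). GPR35 was at 2.13 ± 0.49 and 1.99 ± 0.33 CPM (adjusted p = 0.752). OXER1 and GPR31, the receptors closest to this family, had 1 count in 1 siKMT9α sample and 0 counts in all samples, respectively. The succinate receptor SUCNR1 had 10 counts with siControl and 10 with siKMT9α.

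PPARγ, encoded by PPARG, is a nuclear receptor under which HCAR genes are known to be induced in adipocytes. Of 16 genes for PPAR receptors, their partners and targets, 12 were tested, 5 rose and 3 fell, with a median log2 fold change of 0.23. The share called was 66.7%, against 75.6% of all genes. PPARG rose from 92.2 ± 2.71 to 115.1 ± 6.52 CPM (log2 fold change 0.32, adjusted p = 1.65e-05). The coactivator PPARGC1B rose by 1.21 and ANGPTL4 by 0.77, while PDK4 fell by 1.04 on the log2 scale and PLIN2, a lipid droplet protein, by 0.76. CPT1A, which is also on the β-oxidation list, rose as given there. The adipocyte targets FABP4 and CD36 had 2 and 16.5 counts in the siControl samples together and 0 and 8.5 in the siKMT9α samples.

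**Figure D5:**
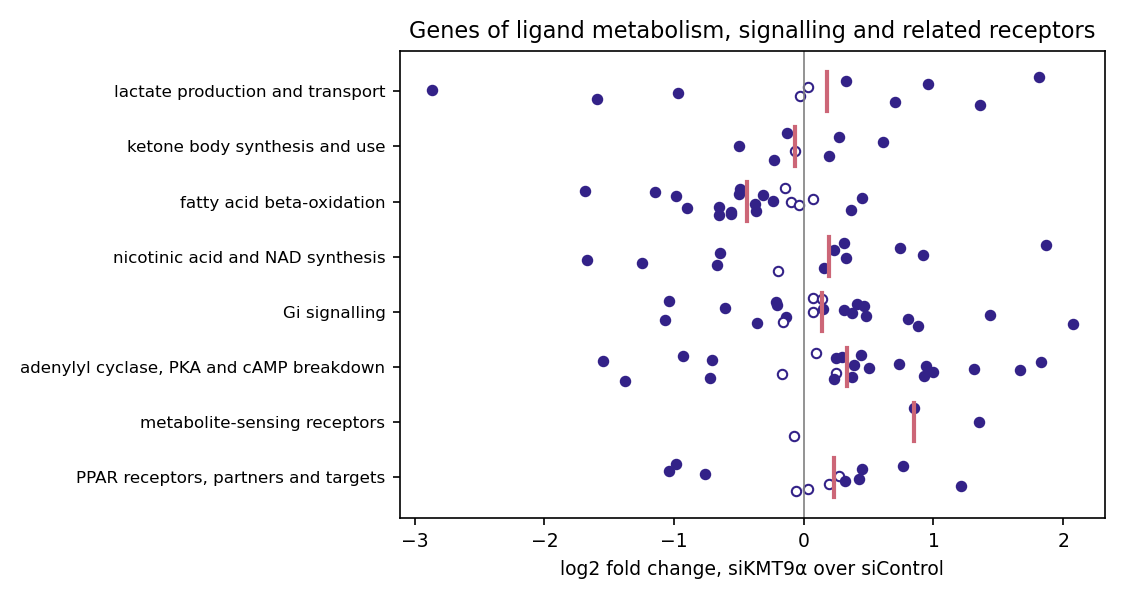
log2 fold change of siKMT9α over siControl (horizontal axis) for the tested genes of 8 lists, 1 point per gene; filled points had an adjusted p under 0.05 and red bars are list medians. Most β-oxidation genes lie below 0 (14 fell, 2 rose). On the list of cyclase, protein kinase A and phosphodiesterase genes, which includes LIPE, most lie above 0 (14 rose, 5 fell).

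Markers of adipocytes and of neutrophils and macrophages were looked up in the same samples, and keratinocyte markers were not. Of 8 adipocyte markers, 5 had at most 3 counts in each sample, ADIPOQ and CIDEA being at 0 throughout, and the 8 summed to 1.25 to 1.48 CPM with siControl and 0.804 to 1.66 CPM with siKMT9α. Of 12 neutrophil and macrophage markers, 8 had at most 3 counts in each sample, among them PTPRC, CSF3R, FCGR3B, CXCR2, S100A8 and S100A9, with FCGR3B and MPO at 0 throughout. These 12 summed to 4.13 to 5.50 CPM with siControl and 2.78 to 3.45 CPM with siKMT9α. Most of this sum was CD14, at 3.55 ± 0.29 and 1.92 ± 0.24 CPM (SD, n = 3 each). The part of other cells in the HCAR2 and HCAR3 counts was not tested beyond these marker levels. In bulk RNA, more cells with a transcript and more transcript per cell cannot be told apart.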

How the data were processed

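RNA was sequenced from 3 siControl and 3 siKMT9α samples of A549 cells, grouped by the sample labels, whose titles call them biological replicates. The authors aligned reads to hg19 with STAR, counted them per RefSeq transcript with HOMER and deposited estimated counts in steps of 0.5, not normalized. They also deposited a fold change (a ratio) and raw and adjusted p-values per transcript from their edgeR comparison, which were not used here. The 1182 of 38767 rows without a symbol and counts were dropped, and of several transcripts of a gene the one with most counts over all samples was kept. The expected counts were rounded to whole numbers (0.5 to the even number), filtered with filterByExpr, scaled by TMM (factors 0.96 to 1.04) and tested with the quasi-likelihood F test of edgeR 4.0.16 in R 4.3.3, with Benjamini-Hochberg adjustment over 13877 genes and no covariate. The standard error is the log2 fold change divided by the square root of F. On simulated counts with the means and depths of these samples, 194 of 200 genes changed by 1 on the log2 scale were called, with 8 calls among unchanged genes of 13771 tested. The simulation gave all genes the same spread between replicates and changed only these 200, whereas 75.6% of genes were called in the data. It therefore checks that the code runs as meant and does not measure the rate of false calls here.

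The members and the gene lists were chosen with earlier results of these data known. Text genes were named by a rule: the members, N6AMT1, up to 3 called genes at each end of each list with at least 1 CPM, the nearest neighbours and the closest patterns. Fixed genes of the lactate, Gi and PPAR lists and OXER1 and GPR31 were always given. Further genes, such as HADHA, HADHB, SUCNR1, FABP4, CD36, GPR35 and the markers, were named for their function, and some genes that the rule would name are not reported here. A value of 3 counts was taken as what a count of 0 allows. Intervals are exact (Clopper-Pearson, 95%, sums rounded to whole counts) and, like that limit, cover counting error only. For a single gene, 3 against 3 samples cannot give an exact permutation p below 0.1. Sequences, stretches and annotation came from GRCh37 and GENCODE, whose coordinates are those of hg19; alignments were made with Biopython 1.88. Deviations from the group means were not shared by samples of equal replicate number (correlations across genes of -0.12, 0.04 and -0.11 for replicates 1, 2 and 3), so they were not treated as pairs. Alternatives were RLE factors, library size alone, DESeq2 1.42.0, the likelihood-ratio test, dropping the filter, asking for 10 counts or more in each sample, testing every transcript, doubled counts, the replicate block and each sample left out. Rounding 0.5 up was added after seeing the data.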

Additional observations from a re-analysis of the deposited data

How the results depend on the processing

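The fitted log2 fold changes of HCAR2, HCAR3, their sum and N6AMT1 kept their direction in every alternative that could be fitted. Leaving out each sample in turn gave 4.78 to 5.09 for HCAR2, 5.38 to 6.20 for HCAR3 and 5.04 to 5.52 for their sum; the lowest value came without siControl replicate 2, which had the fewest counts of the pair, and the highest without siControl replicate 1. For HCAR3, rounding 0.5 up, chosen after seeing the data, gave 5.55. With at least 10 counts in every sample, none of the members could be fitted. HCAR1 failed the filter on low counts. With the filter dropped, its fitted log2 fold change was -1.47, which rests on 4 counts with siControl and 1 with siKMT9α. HCAR3's share of the pair in siKMT9α was 42.8% to 44.8% with 1 sample left out. With the library size alone, the median over all tested genes moved from -0.01 to -0.12 (log2).

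Genes called at an adjusted p under 0.05 numbered 10492, 10004 to 10313 with 1 sample left out, 10229 with the replicate block and 18897 transcripts when all were tested. Past the threshold of the methods there were 3357 genes, 2326 to 4085 with 1 sample left out, 2342 with the replicate block, 6070 without the filter, 5962 with the likelihood-ratio test and 6767 transcripts. The block left 4 of the 6 ketone body calls. With 1 sample left out, ketone body calls numbered 3 to 5 and metabolite receptor calls 1 to 2; the latter were also 1 with at least 10 counts in every sample. Within 250 kb, 7 of 9 neighbours tested were called (4 higher), and within 1 Mb, 26 of 36 (13 higher), both near the 75.6% called among all genes. Of the 98 listed genes called, 15 lost the call in at least 1 leave-out, 9 with the library size alone, 7 with DESeq2 and 2 with the block. Where calls changed, the cause was not tested. The depth limits HCAR1 and all siControl values of the members.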
